A study of Mus musculus with 18 samples.

Results

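The liver breaks down the amino acids that are not needed for protein and turns the freed ammonia into urea. The genes described here are 43 enzymes of amino acid breakdown and of the urea cycle, listed by symbol and grouped by the pathway in which each works, among 15572 genes in the count table. All 43 were measured well enough to be among the 14151 genes tested. The data come from mouse liver of the strain c57bl/6j, from WT mice and from JMJD1C-LKO littermates, in which floxed Jmjd1c, the gene of a histone H3 lysine 9 demethylase, is deleted by Cre under the albumin promoter, and hence in hepatocytes. RNA-seq compared 2 WT with 2 JMJD1C-LKO libraries of refed mice, each library made from pooled RNA, while ATAC-seq (2 livers each of fasted WT, refed WT and refed JMJD1C-LKO mice) and H3K9me2 ChIP-seq (WT livers, 2 fasted and 2 refed) used 1 mouse per sample. The labels give chow for 6 to 8 weeks, an overnight fast and 6 h of refeeding on a high carbohydrate diet, and the methods give 12 weeks of age and 8 to 16 h of refeeding on a diet that was also free of fat.

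In breakdown, the amino group is moved to glutamate by transaminases and released as ammonia, or passed on through aspartate, and both enter the urea cycle. The carbon skeletons then become pyruvate, intermediates of the citric acid cycle or ketone bodies, so several of these enzymes also feed gluconeogenesis. In liver, many of these genes are known to be induced by fasting, glucagon and glucocorticoids and to be lowered by carbohydrate feeding and insulin.

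Total estimated counts were between 51265128 and 54400509 per RNA library. Gene levels are given as CPM (counts scaled to the library size, after TMM normalisation), in the order WT 1, WT 2, LKO 1, LKO 2. Changes are given as log2 of LKO over WT with an SE and the adjusted p of edgeR's quasi-likelihood F test. The SE was derived from that test, as the absolute log2 change divided by the square root of F. The targeted gene did not pass the test in the libraries labelled JMJD1C-LKO, with Jmjd1c at 22, 22.8, 20 and 20.5 CPM (log2 -0.14, adjusted p = 0.23), so its level does not bear out the labels. By transcript, the log2 change was 0.10 for NM_207221 and -0.81 for NM_001242396, and neither passed the test. In JMJD1C-LKO liver the paper reported lower Jmjd1c mRNA by RT-qPCR and no detectable protein by immunoblot. The sources used here do not name the deleted exons, and whether these counts cover them is not known. Throughout, LKO stands for the libraries labelled JMJD1C-LKO, and every direction below rests on those labels. Hepatocyte markers were abundant in every library, with a sum of 7 genes between 130788 and 133917 CPM in WT and between 120533 and 134397 CPM in LKO, and none of the 7 passed the test. Of 7 Kupffer cell markers 7 were higher in LKO, with a summed level of 233 and 238 CPM in WT and 448 and 645 CPM in LKO, and of 6 endothelial markers 5 were higher, with sums of 96.9 and 97.9 CPM in WT and 131 and 173 CPM in LKO. No marker of either list was at 0, and 14.6% of all genes tested were higher in LKO. In whole liver, a larger share of a cell type and more RNA per cell cannot be told apart, and the part of these cells in the results below was not tested.

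Amino acid breakdown genes were higher in refed LKO than in refed WT liver. Of the 43 genes 27 rose (compared with 14.6% of all genes tested), 1 fell (compared with 13.4%) and 15 did not pass the test. Their median log2 change was 0.41, compared with 0.01 over all genes tested. Both LKO libraries lay above both WT libraries for 32 of the genes, compared with 33.6% of all genes, and below them for 2, compared with 33.8%. The rises were mostly moderate, as only Tat, Bhmt, Sds and Gnmt rose more than 2-fold. Of the 27, 15 were at least 1.5-fold (9.24% of all genes), and no gene fell by 1.5-fold (3.94% of all genes). These are abundant genes, since 36 of the 43 were among the 1415 most expressed genes, of which 14.7% rose and 23.9% fell. The summed level of the 43 genes was 28531 and 26486 CPM in the WT and 46865 and 45920 CPM in the LKO libraries. Bhmt alone accounted for 32.7% of this difference, Mat1a for 12%, Tat for 10%, Ass1 for 8.42% and Hpd for 7.23%. With 2 libraries a group an exact permutation test cannot go below p = 0.333, so no single sum was tested. Without WT replicate 2 the number that rose was 15, with Agxt, Asl, Ass1, Bckdhb, Gldc, Gpt, Gpt2, Hgd, Ivd, Kynu, Sdsl and Uroc1 no longer past the threshold. The median log2 change of the 43 genes was 0.37 without WT replicate 2 and 0.43 without WT replicate 1. It was 0.36 without LKO replicate 1 and 0.47 without LKO replicate 2.

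**Figure D1:**
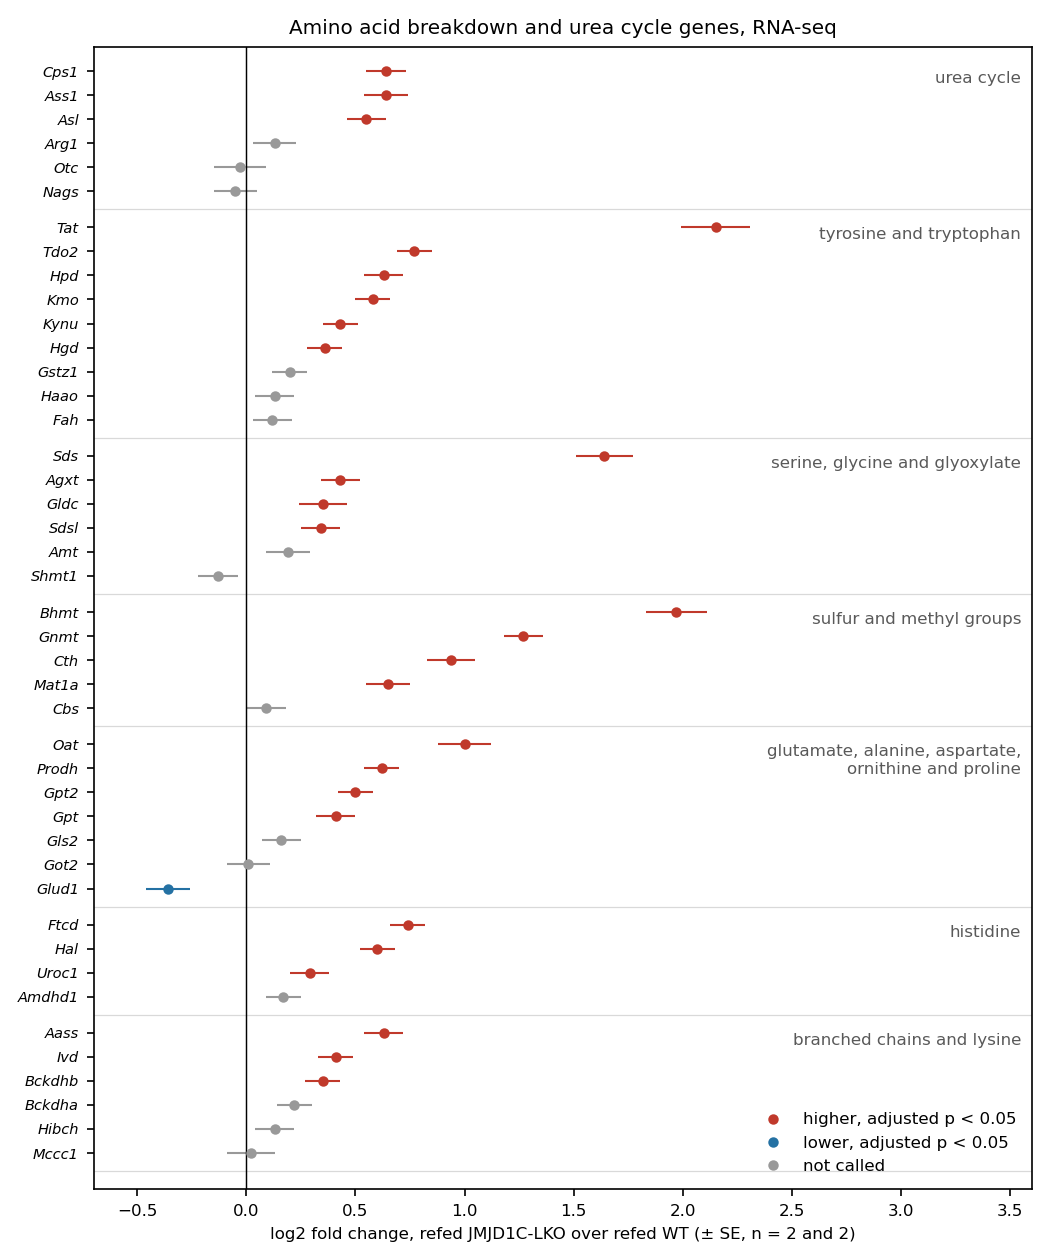
Log2 fold change of each of the 43 genes between refed JMJD1C-LKO and refed WT liver (horizontal axis, points with SE, 2 libraries a group), by pathway group and ordered by change within a group. Points to the right of 0 are higher in LKO. Red marks the 27 genes that rose, blue the 1 that fell and grey the 15 that did not pass the test.

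Of the 6 urea cycle genes 3 rose and 0 fell (compared with 14.6% and 13.4% of all genes tested). Cps1 (chromosome 1, 67123027 to 67231267, plus strand, GRCm38.p6), which makes carbamoyl phosphate from ammonia in the mitochondria and is the committed step of the cycle, was at 2019, 2175, 3390 and 3149 CPM (log2 0.64 ± 0.09, adjusted p = 0.0012). Ass1 (chromosome 2, 31470270 to 31520670, plus strand), which joins citrulline and aspartate, was at 3040, 2650, 4662 and 4207 CPM (0.64 ± 0.10, adjusted p = 0.0021). Asl (chromosome 5, 130011258 to 130024381, minus strand), which splits argininosuccinate into arginine and fumarate, was at 1014, 914, 1369 and 1453 CPM (0.55 ± 0.09, adjusted p = 0.0023). For these 3 genes both LKO libraries lay above both WT libraries, as for 33.6% of all genes tested. The other 3 genes of the cycle did not pass the test, and their groups overlapped. Otc, which makes citrulline, was at 363, 306, 363 and 292 CPM, Arg1, which releases urea from arginine, at 1712, 1551, 1933 and 1644 CPM, and Nags, which makes the activator of carbamoyl phosphate synthetase, at 83.2, 75.9, 83.3 and 70.4 CPM. Per kb of transcript, Ass1 was the most abundant of the group in WT, at 1744 CPM per kb, and Nags the least, at 37.6. The direction of Otc and Nags depended on single libraries.

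Among the 43 genes, enzymes of tyrosine and tryptophan breakdown rose most at the first step of each pathway. Tat (chromosome 8, 109990436 to 109999804, plus strand), the tyrosine aminotransferase that starts tyrosine breakdown and a classic glucocorticoid-induced gene, had the largest log2 change of the 43, at 592, 516, 1992 and 2908 CPM (2.15 ± 0.16, 4.42-fold, adjusted p = 5.7e-05). The 2 LKO libraries differed from each other but were both far above WT. Hpd, the dioxygenase of the second step, was at 2519, 2419, 3828 and 3840 CPM (0.63 ± 0.09, adjusted p = 0.00093). Hgd, which opens the ring of homogentisate, was at 511, 491, 635 and 646 CPM (0.36 ± 0.08, adjusted p = 0.01). The last enzymes of the pathway did not pass the test. Gstz1, the maleylacetoacetate isomerase, was at 611, 595, 728 and 661 CPM (0.20 ± 0.08, adjusted p = 0.1), and Fah, which makes fumarate and acetoacetate, at 809, 755, 882 and 821 CPM (0.12 ± 0.09, adjusted p = 0.31). For both, the LKO libraries were above the WT libraries, as they were for 33.6% of all genes tested.

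Tryptophan breakdown starts with Tdo2, which opens the indole ring and, like Tat, responds to glucocorticoids. It was at 615, 666, 1090 and 1099 CPM (log2 0.77 ± 0.08, adjusted p = 0.00032). Kmo, which hydroxylates kynurenine, was at 210, 202, 318 and 299 CPM (0.58 ± 0.08, adjusted p = 0.0011), and Kynu, which releases alanine from the product, at 114, 110, 155 and 146 CPM (0.43 ± 0.08, adjusted p = 0.0041). In all of these genes both LKO libraries exceeded both WT libraries, as in 33.6% of all genes tested. Haao, which makes the precursor of quinolinate, overlapped between groups at 266, 237, 284 and 266 CPM (0.13 ± 0.09, adjusted p = 0.31). Per kb, Hpd was the most abundant gene of this group in WT (1764 CPM per kb) and Kynu the least (37.3).

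The order along both pathways was noticed after the values were seen and has no test of its own. Relative to the mean of the WT libraries, LKO 1 and LKO 2 had log2 CPM ratios of 1.85 and 2.40 for Tat, 0.63 and 0.64 for Hpd, 0.34 and 0.37 for Hgd, 0.27 and 0.13 for Gstz1 and 0.18 and 0.07 for Fah. Each LKO library thus gave the same falling order of ratios from the first to the last enzyme of tyrosine breakdown. For tryptophan the ratios were 0.77 and 0.78 for Tdo2, 0.62 and 0.53 for Kmo, 0.47 and 0.39 for Kynu and 0.18 and 0.08 for Haao. Afmid, the formamidase between Tdo2 and Kmo, which is not among the 43 genes, was out of this order with ratios of 0.09 and 0.02. Acmsd, which acts after Haao and is also outside the 43 genes, had a larger log2 change than Tdo2, 1.82 ± 0.11. That too was out of this order. Histidine breakdown also did not follow it, since its last enzyme, Ftcd, had the largest ratios of the pathway, 0.72 and 0.77.

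**Figure D2:**
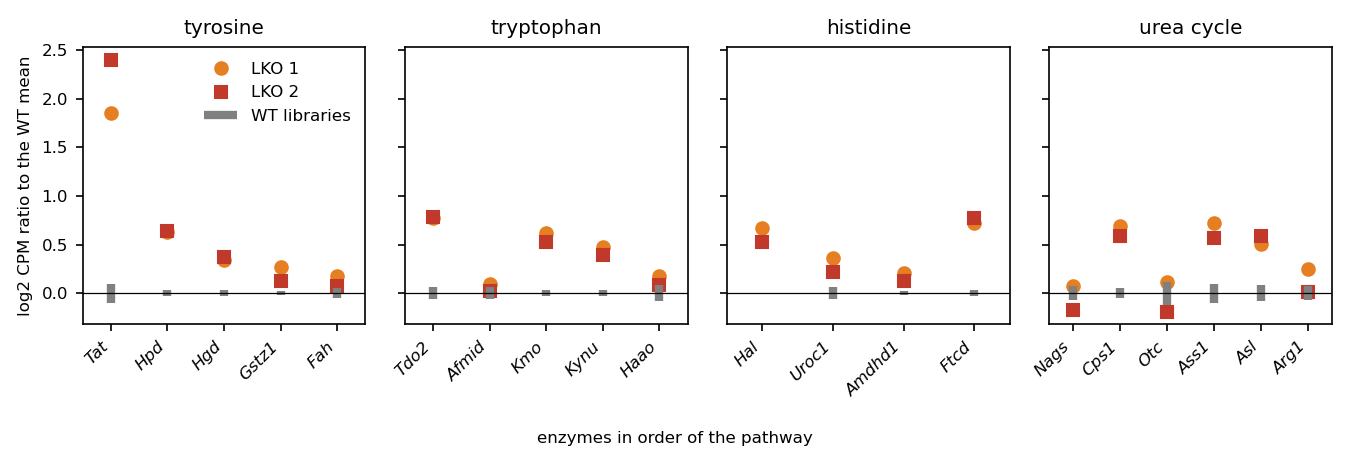
Log2 ratio of the CPM in each LKO library to the mean of the WT libraries (vertical axis) for the enzymes of 4 pathways in their order (horizontal axis). Circles are LKO 1 and squares LKO 2, and the grey bar spans the 2 WT libraries. The ratios fall from Tat (1.85 and 2.40) to Fah (0.18 and 0.07), while in histidine breakdown the last enzyme, Ftcd, has the largest.

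The methionine and methyl group enzymes held the largest rise in amount of RNA. Bhmt (chromosome 13, 93616891 to 93637758, minus strand), which remakes methionine from homocysteine with a methyl group of betaine, was at 2435, 1786, 8739 and 7843 CPM (log2 1.97 ± 0.14, 3.93-fold, adjusted p = 4.7e-05). Gnmt (chromosome 17, 46725664 to 46729165, minus strand), which uses up S-adenosylmethionine by methylating glycine, was at 607, 682, 1558 and 1554 CPM (1.27 ± 0.09, adjusted p = 4.4e-05). Cth, which makes cysteine from cystathionine, was at 353, 286, 656 and 574 CPM (0.94 ± 0.11, adjusted p = 0.00053). Mat1a, the liver enzyme that makes S-adenosylmethionine, was at 4090, 3834, 5830 and 6618 CPM (0.65 ± 0.10, adjusted p = 0.0016). In each of these 4 genes the LKO libraries lay above the WT libraries, as in 33.6% of all genes tested. Cbs, which joins homocysteine and serine just before Cth, was at 328, 293, 352 and 310 CPM (0.09 ± 0.09, adjusted p = 0.51), with overlapping groups. In WT, Mat1a was the most abundant of the 5 per kb (1137 CPM per kb) and Cbs the least abundant, while in LKO the highest was Bhmt at 4003 CPM per kb.

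Among the serine, glycine and glyoxylate enzymes 4 of 6 rose (compared with 14.6% of all genes tested). Sds (chromosome 5, 120476547 to 120483905, plus strand), the serine dehydratase that turns serine into pyruvate, was at 102, 86.3, 254 and 333 CPM (log2 1.64 ± 0.13, 3.13-fold, adjusted p = 7.5e-05). Its neighbour and paralog Sdsl (chromosome 5, 120458201 to 120472825, minus strand) was at 28.1, 25.5, 32.9 and 34.7 CPM (0.34 ± 0.09, adjusted p = 0.019). The 2 neighbouring genes thus both rose, by different amounts. Agxt, the peroxisomal transaminase that removes glyoxylate, was at 243, 218, 320 and 303 CPM (0.43 ± 0.09, adjusted p = 0.0059). Gldc, the decarboxylase of the glycine cleavage system, was at 135, 141, 195 and 155 CPM (0.35 ± 0.11, adjusted p = 0.039), and its partner Amt at 17.7, 18.7, 22.3 and 19.2 CPM (0.19 ± 0.10, adjusted p = 0.19). Both LKO libraries were above both WT libraries for these genes, as for 33.6% of all genes tested, and Amt did not pass the test. Shmt1, which moves a carbon of serine to folate, was at 187, 195, 186 and 162 CPM (-0.13 ± 0.09, adjusted p = 0.3), with both LKO libraries just below WT. Agxt was the most abundant per kb in WT (148 CPM per kb) and Amt the least (8.88).

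In the group around glutamate, alanine, aspartate, ornithine and proline 4 of 7 genes rose and 1 fell (14.6% and 13.4% of all genes tested). Oat, which moves the amino group of ornithine and is known as a pericentral enzyme, was at 609, 475, 1059 and 1102 CPM (1.99-fold, with an SE of 0.12 on the log2 scale, adjusted p = 0.00043). Prodh, the first enzyme of proline breakdown, was at 146, 144, 226 and 221 CPM (0.62 ± 0.08, adjusted p = 0.0006). The alanine transaminases both rose, Gpt2, the mitochondrial enzyme, at 358, 346, 506 and 490 CPM (0.50 ± 0.08, adjusted p = 0.0019) and Gpt, the cytosolic one, at 265, 259, 373 and 326 CPM (0.41 ± 0.09, adjusted p = 0.0085). Glud1, the glutamate dehydrogenase that releases ammonia from glutamate, was the gene that fell, at 1057, 1060, 893 and 750 CPM (-0.36 ± 0.10, adjusted p = 0.022). Its call was lost without WT replicate 1, WT replicate 2 or LKO replicate 2, where its log2 change was -0.37, -0.37 and -0.24. Gls2, the liver glutaminase, was at 305, 278, 349 and 303 CPM, and Got2, the mitochondrial aspartate transaminase, at 645, 657, 711 and 601 CPM. Both had overlapping groups and did not pass the test. Glud1 was the most abundant of the group in WT per kb (335 CPM per kb) and Prodh the least (63.5).

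Histidine breakdown rose in 3 of its 4 enzymes (compared with 14.6% of all genes tested). Hal, the ammonia lyase of the first step, was at 336, 338, 536 and 488 CPM (log2 0.60 ± 0.08, adjusted p = 0.0011). Uroc1, the urocanate hydratase, was at 520, 479, 642 and 582 CPM (0.29 ± 0.09, adjusted p = 0.036). Ftcd, which hands the formimino group to folate, was at 283, 273, 458 and 474 CPM (0.74 ± 0.08, adjusted p = 0.00029). Amdhd1, the step between Uroc1 and Ftcd, was at 260, 255, 298 and 282 CPM (0.17 ± 0.08, adjusted p = 0.13). In all 4 genes both LKO libraries lay above WT, as in 33.6% of all genes tested. Levels per kb were close within the group, from 103 CPM per kb for Ftcd to 148 for Uroc1 in WT.

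The branched chain and lysine enzymes changed least, with a median log2 change of 0.28. Aass, which starts lysine breakdown, was at 195, 177, 297 and 278 CPM (0.63 ± 0.09, adjusted p = 0.00098). Ivd, the isovaleryl-CoA dehydrogenase of leucine breakdown, was at a mean of 127 CPM in WT (SD 5.75) and 169 CPM in LKO (log2 0.41 ± 0.08, adjusted p = 0.0066). Bckdhb, a subunit of the branched chain keto acid dehydrogenase, was at 62.3, 67.9, 83.2 and 82.7 CPM (0.35 ± 0.08, adjusted p = 0.011). In these 3 genes the LKO libraries were above the WT libraries, as in 33.6% of all genes tested. Bckdha, the partner subunit in the same complex, was at 244, 229, 283 and 268 CPM (0.22 ± 0.08, adjusted p = 0.072). Hibch of valine breakdown was at 68.7, 61.6, 74.5 and 67.6 CPM and Mccc1 of leucine breakdown at 41.2, 35.9, 42.7 and 35.7 CPM, with overlapping groups. Bckdha was the most abundant per kb in WT (134 CPM per kb) and Mccc1 the least (12.9).

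**Figure D3:**
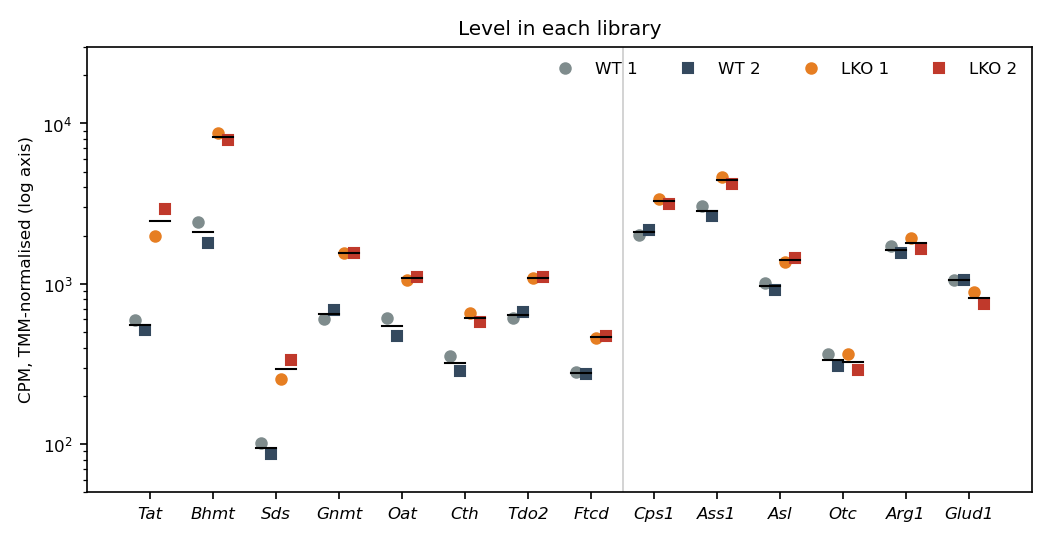
Level of 14 genes in each RNA library, as CPM on a log axis, with circles for replicate 1, squares for replicate 2 and bars for the group means. Left of the line are the 8 largest rises, right of it genes of the urea cycle and Glud1. Bhmt reaches 8739 and 7843 CPM in LKO, while Otc overlaps between groups.

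Most of these genes have a single transcript in the table. For the 8 genes with several transcripts, Agxt, Bckdhb, Cbs, Gls2, Gstz1, Hgd, Kynu and Uroc1, the test was repeated per transcript over 22296 transcripts, of which 2.12% were higher and 1.38% lower. Of all 55 transcripts of the 43 genes 19 were higher and 0 lower (edgeR, and 19 of 43 genes when the most abundant transcript stood for the gene). The main transcript of Kynu, NM_027552, held 93.4% and 92.1% of the gene's CPM in WT and 94.3% and 95.1% in LKO and rose (log2 0.46 ± 0.07, adjusted p = 0.046). Both transcripts of Agxt had equal deposited values in every library, at 121, 109, 160 and 152 CPM, so they could not be told apart. In Gstz1, NM_010363 was at 217, 218, 315 and 255 CPM (0.39 ± 0.11, adjusted p = 0.12), whereas NM_001252556 was at 393, 377, 412 and 407 CPM (0.09 ± 0.07, adjusted p = 0.47). The difference between these 2 transcripts was not tested.

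Of 71 other enzymes of amino acid breakdown, outside the 43, 68 were tested. Of these 23 rose and 5 fell, with a median log2 change of 0.15, compared with 14.6% higher and 13.4% lower over all genes tested. The higher count was 8 without WT replicate 1 and 9 without WT replicate 2, and the lower count 11 without LKO replicate 1 and 1 without any one of the other libraries. Got1, the cytosolic aspartate transaminase, was at 76.2, 72, 365 and 581 CPM (log2 2.67 ± 0.18, adjusted p = 3.9e-05), whereas its mitochondrial counterpart Got2 did not pass the test. Acmsd, which steers tryptophan away from NAD synthesis, was at 5.57, 6.35, 20.9 and 21.2 CPM (1.82 ± 0.11, adjusted p = 1.9e-05). Both rose more than 3-fold. Ppm1k, the phosphatase that activates the branched chain keto acid dehydrogenase, rose (1.09 ± 0.11, adjusted p = 0.0002), while Bckdk, the kinase that inhibits that complex, fell from 14.6 and 14.7 CPM to 12 and 10.8 CPM (-0.37 ± 0.11, adjusted p = 0.028). Hsd17b10 (0.62 ± 0.08, adjusted p = 0.001) and Ahcy (0.54 ± 0.08, adjusted p = 0.0019), the hydrolase that splits the S-adenosylhomocysteine made by Gnmt, were also higher. The largest fall was in Csad, which leads from cysteine to taurine, at 503, 518, 229 and 223 CPM (-1.17 ± 0.08, adjusted p = 3.9e-05). The other genes that fell were Ddo, Nit2 and Bdh1, with log2 changes of -0.31, -0.38 and -0.24.

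Of 21 transporters of amino acids and of urea cycle intermediates 12 rose and 3 fell, where 14.6% and 13.4% of all genes tested did. Without either WT library 7 rose, and without WT replicate 2 the number that fell was 1. The mitochondrial ornithine carrier Slc25a15, which the urea cycle needs, was at 205, 206, 385 and 451 CPM (log2 1.03 ± 0.09, adjusted p = 0.00014). Slc7a2, which takes up arginine, ornithine and lysine, was at 167, 157, 492 and 688 CPM (1.87 ± 0.14, adjusted p = 5.7e-05). Both were higher in both LKO libraries than in either WT library, as were 33.6% of all genes tested. Slc25a22, a mitochondrial glutamate carrier (1.57 ± 0.17, adjusted p = 0.00034), Slc16a10, which carries aromatic amino acids (1.02 ± 0.09, adjusted p = 0.00013), and Slc38a4, which takes up neutral amino acids (0.78 ± 0.08, adjusted p = 0.00025), rose as well. Slc6a9, a glycine transporter (-0.68 ± 0.09, adjusted p = 0.00077), Slc6a13 (-0.48 ± 0.10, adjusted p = 0.0061) and Slc3a2 (-0.31 ± 0.08, adjusted p = 0.022) fell. Among 17 known regulators of these genes 7 rose and 3 fell, compared with 14.6% and 13.4% of all genes tested. Without WT replicate 2 the number that rose was 4, and the falls numbered 0 without either WT library and 1 without LKO replicate 2. Ppargc1a, a coactivator of the fasting response, was at 8.82, 8.91, 25.5 and 33.1 CPM (1.72 ± 0.13, adjusted p = 5.4e-05), and Cebpb, a transcription factor of the same response, rose too (1.05 ± 0.13, adjusted p = 0.00066). Both, together with Klf15 (0.78 ± 0.09, adjusted p = 0.00051), which drives amino acid breakdown in fasting, Tsc22d3, a glucocorticoid target (0.90 ± 0.11, adjusted p = 0.00047), and Foxo3 (0.91 ± 0.15, adjusted p = 0.0024), were higher in LKO. Cebpa (-0.45 ± 0.12, adjusted p = 0.024) and the glucocorticoid receptor gene Nr3c1 (-0.37 ± 0.11, adjusted p = 0.032) were among those that fell.

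In ATAC-seq a transposase cuts accessible DNA, and the deposited data give the summit of each called peak with the −log10 of its q-value as a score. An ATAC summit within 1000 bp of a transcript start was found for few of the 43 genes, at 11 and 2 of them in the fasted WT livers (12% and 5.49% of all 26180 annotated genes), at 5 and 4 in the refed WT livers (9.94% and 6.24%) and at 1 and 1 in the refed LKO livers (4.06% and 0.886%). Among the 1382 most expressed annotated genes the shares were 21.1%, 10.4%, 17.1%, 11.6%, 6.08% and 1.3% in the same order. As shares of the 43 genes these counts were 25.6%, 4.65%, 11.6%, 9.3%, 2.33% and 2.33%. The number of called summits differed much between livers, from 7632 in fasted replicate 2 to 825 in LKO replicate 2, and the depth is unknown from the lists, so a missing summit means that no peak was called. With 2 livers a group no difference could reach p = 0.05 in an exact permutation test.

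In total 11 genes had such a summit in at least 1 liver (16.8% of all annotated genes), and 6 of them, Bckdha, Mccc1, Hibch, Uroc1, Aass and Gstz1, had it in more than 1. In both fasted livers there were 2 (4.36%), in both refed WT livers 3 (4.78%) and in both LKO livers 0 (0.397%). Bckdha (chromosome 7, 25629852 to 25658761, minus strand) had one in both fasted and both refed WT livers, 155, 167, 129 and 160 bp upstream of its start, and in neither LKO liver. Mccc1 (chromosome 3, 35959296 to 36000678, minus strand) had one in all 4 WT livers and in LKO replicate 1, between 102 and 220 bp downstream of its start. Hibch (chromosome 1, 52845038 to 52920986, plus strand) had one in both refed WT livers, 151 and 143 bp upstream, and in fasted replicate 1, 94 bp downstream. None of these 3 genes passed the test in the RNA-seq. The remaining genes with a summit were Aass and Gstz1 in fasted replicate 1 and refed replicate 1, Uroc1 in fasted replicate 1, refed replicate 2 and LKO replicate 2, and Kmo, Kynu, Gls2, Gpt2 and Hal in fasted replicate 1 alone. No ATAC summit was called at the start of any urea cycle gene, nor at Tat, Bhmt, Sds or Gnmt, in any of the 6 livers. These genes are among the 32 of the 43 without one. A summit in at least 1 liver was called for 16.8% of all annotated genes and 31.2% of the 1382 most expressed. The nearest ATAC summit to the start of Tat was between 146118 and 4162982 bp away, and that to Cps1 between 16546 and 2333809 bp.

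Promoter sequences from RefSeq (GRCm38.p6) were found for 33 of the 43 genes, each running from 250 bases before to 50 bases after the start. The 4 shown first belong to the genes with ATAC-seq or H3K9me2 summits in the most samples, and are written 5′ to 3′ on the strand of the gene. Capitals mark matches on either strand to the CCAAT box letters CCAAT, to the GC box letters GGGCGG, to the TATA box letters TATAAA, to the E-box CACGTG, or to the cAMP response element letters TGACGTCA, and matches may overlap. The promoters lie at chr7:25658712-25659011, chr3:36000629-36000928, chr6:90333039-90333338 and chr1:52844788-52845087 in the order given. The 4 Bckdha summits and the refed Hibch summits lie inside these windows, and those of Mccc1 and Uroc1 and the fasted Hibch summit outside.
Bckdha: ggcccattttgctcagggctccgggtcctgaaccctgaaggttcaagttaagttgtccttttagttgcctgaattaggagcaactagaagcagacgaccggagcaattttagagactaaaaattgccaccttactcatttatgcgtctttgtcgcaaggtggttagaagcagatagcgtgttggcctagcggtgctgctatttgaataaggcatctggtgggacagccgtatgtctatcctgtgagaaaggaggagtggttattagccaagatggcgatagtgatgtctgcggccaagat
Mccc1: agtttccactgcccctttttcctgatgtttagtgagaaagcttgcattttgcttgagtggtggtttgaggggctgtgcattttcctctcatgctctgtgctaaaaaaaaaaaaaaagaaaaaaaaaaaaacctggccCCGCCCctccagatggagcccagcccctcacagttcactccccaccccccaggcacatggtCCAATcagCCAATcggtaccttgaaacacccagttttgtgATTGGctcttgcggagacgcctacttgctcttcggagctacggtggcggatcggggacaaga
Uroc1: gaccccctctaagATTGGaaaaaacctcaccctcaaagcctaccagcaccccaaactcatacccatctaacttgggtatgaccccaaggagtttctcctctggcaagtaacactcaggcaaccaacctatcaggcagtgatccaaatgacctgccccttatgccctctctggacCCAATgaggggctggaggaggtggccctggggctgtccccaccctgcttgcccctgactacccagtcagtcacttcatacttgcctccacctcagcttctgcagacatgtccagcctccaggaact
Hibch: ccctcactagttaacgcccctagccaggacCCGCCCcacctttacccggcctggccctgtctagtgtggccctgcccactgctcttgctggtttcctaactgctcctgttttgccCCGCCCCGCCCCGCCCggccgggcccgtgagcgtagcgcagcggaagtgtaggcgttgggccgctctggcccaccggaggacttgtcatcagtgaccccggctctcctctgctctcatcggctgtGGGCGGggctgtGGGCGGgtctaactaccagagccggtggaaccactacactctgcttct

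The promoters of the 3 genes with the largest rises and an entry, chosen after their values were seen, are shown with the same marks for contrast, since no ATAC summit was called near them. They lie at chr8:109990186-109990485, chr13:93637709-93638008 and chr17:46729116-46729415.
Tat: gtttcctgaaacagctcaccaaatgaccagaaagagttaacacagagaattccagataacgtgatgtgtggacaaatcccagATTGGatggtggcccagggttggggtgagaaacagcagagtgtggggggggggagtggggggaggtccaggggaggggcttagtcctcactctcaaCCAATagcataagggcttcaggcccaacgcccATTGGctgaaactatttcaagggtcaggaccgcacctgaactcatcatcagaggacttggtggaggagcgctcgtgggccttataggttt
Bhmt: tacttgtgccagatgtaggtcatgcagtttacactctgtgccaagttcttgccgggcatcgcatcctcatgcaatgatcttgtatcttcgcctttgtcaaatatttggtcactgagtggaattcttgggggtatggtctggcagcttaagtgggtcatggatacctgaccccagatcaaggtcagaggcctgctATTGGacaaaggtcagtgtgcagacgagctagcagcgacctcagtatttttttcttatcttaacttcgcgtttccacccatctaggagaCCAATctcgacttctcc
Gnmt: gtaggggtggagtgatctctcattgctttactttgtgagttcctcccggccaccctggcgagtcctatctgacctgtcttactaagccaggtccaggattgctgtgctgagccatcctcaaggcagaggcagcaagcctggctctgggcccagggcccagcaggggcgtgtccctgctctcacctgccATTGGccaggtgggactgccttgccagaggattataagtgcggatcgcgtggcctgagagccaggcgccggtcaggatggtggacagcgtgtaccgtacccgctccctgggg
All 3 hold CCAAT or its reverse, as do 17 of the 33 genes and 37.4% of all 32851 promoters. GGGCGG was found in 17 of the 33 genes (35.7% of all promoters), TATAAA in 5, namely Ftcd, Got2, Hal, Hgd and Tdo2 (13.6%), CACGTG in Ass1 and Cbs (7.15%) and TGACGTCA in 0 of 33 (1.79%). The number of CG dinucleotides ranged from 0 in Uroc1 to 51 in Glud1, with a median of 10 over the member promoters and 7 over all promoters. The Bckdha window held 10 CG dinucleotides and none of the motifs, whereas the Hibch window held 20 and matched GGGCGG.

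**Figure D4:**
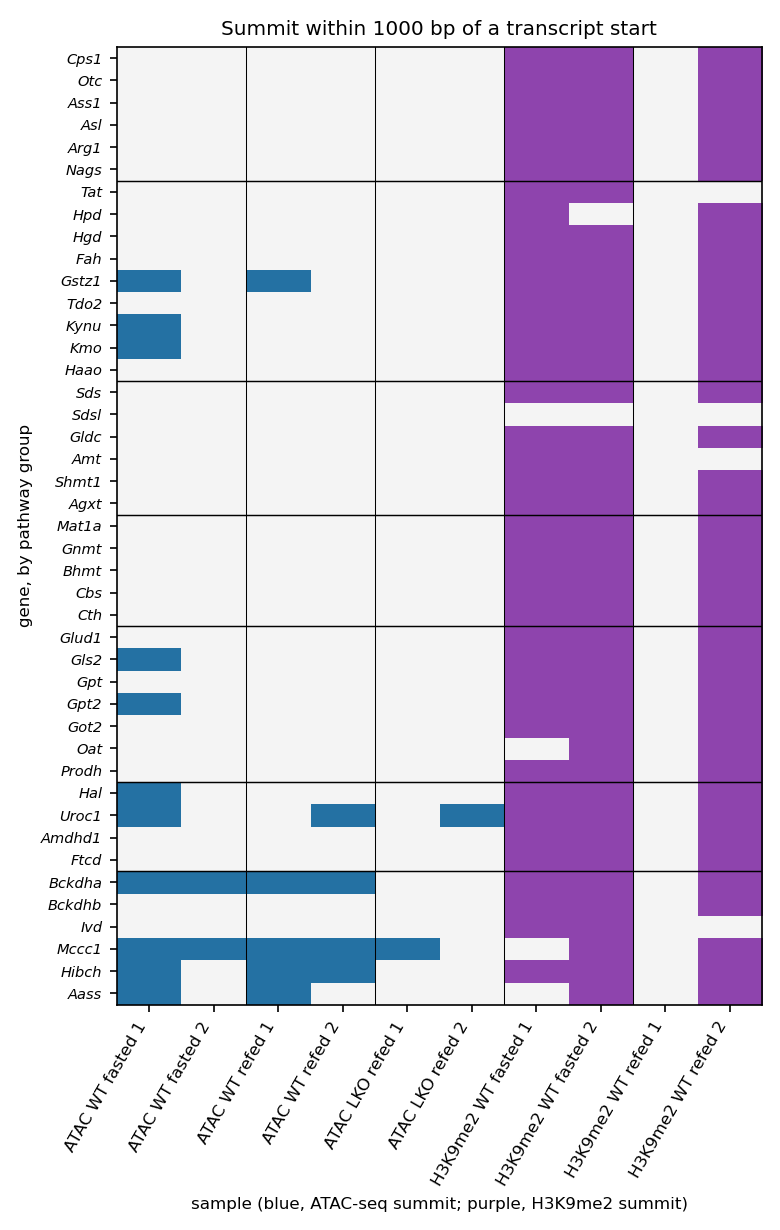
Presence of a called summit within 1000 bp of a transcript start for each of the 43 genes (rows, by pathway group) in the 10 peak samples (columns). Blue marks ATAC-seq and purple H3K9me2 summits. ATAC summits are most frequent at Mccc1 (5 livers), Bckdha (4), Hibch (3) and Uroc1 (3), while H3K9me2 summits cover nearly all genes in 3 samples and none in refed replicate 1.

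H3K9me2, dimethylation of lysine 9 of histone H3, is the mark that JMJD1C removes and is generally linked to repressed chromatin. A summit within 1000 bp of a start was found for 39 and 41 of the 43 genes in the fasted livers (29.3% and 42.7% of all annotated genes) and for 0 and 39 in the refed livers (0.233% and 35.1%). Refed replicate 1 stood apart from the other 3 samples, with 1297 summits against 7690 to 13456, and summits at the starts of 61 genes in all. In both fasted livers there were 38 of the genes (29.1% of all annotated genes), and in both refed livers 0 (0.042%). Without refed replicate 1 the refed count was 39. The 43 genes were close to other abundant genes in this respect, since 86.5%, 95.3% and 91.5% of the 1382 most expressed genes had such a summit in fasted 1, fasted 2 and refed 2, compared with 7.96%, 19.8% and 10.8% of the 1382 least expressed genes tested. In refed replicate 1 these shares were 0.289% and 0.0724%. The shares of the 43 genes were 90.7%, 95.3% and 90.7%.

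The 6 urea cycle genes, the 5 methyl group genes and the 4 histidine genes had an H3K9me2 summit in each fasted liver and also in refed replicate 2. Sdsl was the only one of the 43 without a summit in any of the 4 samples, while 43.2% of all annotated genes had one. Hpd, Oat, Mccc1 and Aass lacked it in 1 fasted liver each, and Tat, Amt and Ivd in refed replicate 2. The H3K9me2 summits lay downstream of the start in 39 of 39, 40 of 41 and 39 of 39 genes of fasted 1, fasted 2 and refed 2. Their median distances were 355, 299 and 368 bp, with ranges of 84 to 953, -548 to 937 and 157 to 960 bp (negative is upstream). The positions over all annotated genes were not examined. The ATAC summits had medians of 57 bp upstream in fasted replicate 1 (11 genes), 17.5 bp downstream in fasted replicate 2 (2 genes) and 129 and 152 bp upstream in refed replicates 1 and 2 (5 and 4 genes), and the single summits of LKO replicates 1 and 2 lay 220 bp downstream and 397 bp upstream.

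**Figure D5:**
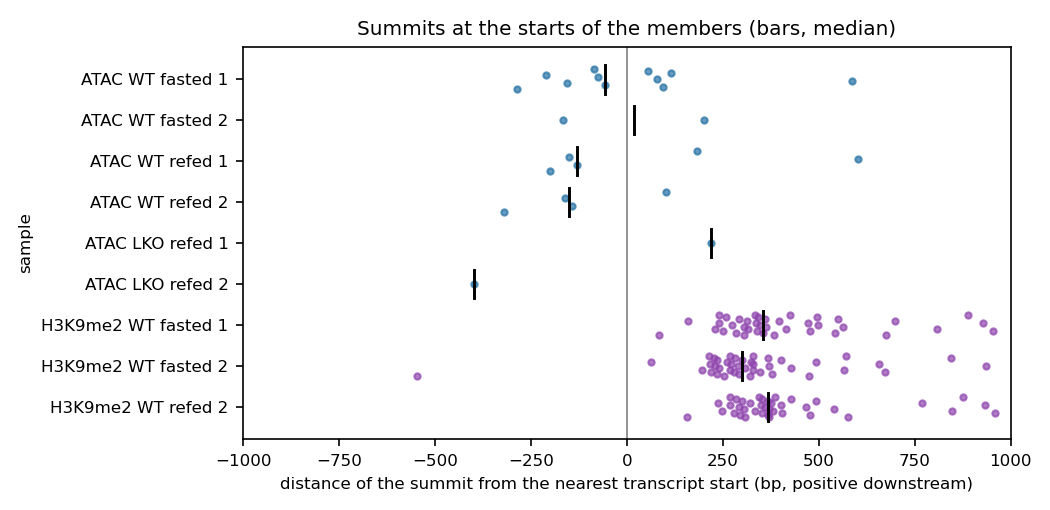
Distance of the highest-scoring summit within 1000 bp from the transcript start, in bp and positive downstream (horizontal axis), for each of the 43 genes with one, by sample (rows), with bars for the medians. ATAC summits (blue) lie on both sides of the start, and H3K9me2 summits (purple) lie downstream of it, with medians between 299 and 368 bp, except that of Glud1 in fasted replicate 2, 548 bp upstream. Refed replicate 1 of the ChIP-seq had none. Gstz1 has several starts, and its plotted distances are not always to the nearest. Its ATAC summits in fasted WT replicate 1 and refed WT replicate 1, plotted at 586 and 602 bp, lie 44 and 60 bp from the nearest start.

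Because scores differ in scale between samples, each summit was placed by its rank among the summits of its own sample. Gnmt had strong H3K9me2 summits, within the top 3.1%, 13.8% and 1.8% of the summits of fasted 1, fasted 2 and refed 2, at 239, 282 and 296 bp downstream. Arg1 was within the top 26.3%, 9.4% and 3% of the same samples. Both genes are abundant in refed WT liver. They are examples, and the median ranks of the genes with a summit were 26.3%, 23.8% and 25.4%. Fah ranked above both in each sample, at 1.5%, 3.9% and 0.2%. Tat had low-ranking summits in the fasted livers, within the top 82.8% and 46.9%, at 928 and 321 bp downstream, and none in refed replicate 2. Sds ranked low as well, at 37.2%, 66% and 77.2%. Bhmt lay between, at 57.2%, 8.9% and 25.4%. The genes that rose most in LKO thus included genes of high and of low H3K9me2 rank in WT liver. The H3K9me2 ChIP-seq covered WT livers only.

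Expression and summits were set side by side as a description over genes, which are not replicates. The 3 genes with an ATAC summit in both refed WT livers had a median level of 35.4 CPM per kb in refed WT (range 12.9 to 134) and the other 40 one of 147 CPM per kb (range 8.88 to 1764). Of the 11 genes with an ATAC summit in any liver 6 rose in LKO, with a median log2 change of 0.29. Of the 32 without one 21 rose, with a median of 0.41. Of all genes tested 14.6% rose, and the difference between genes with and without a summit was not tested. The 39 genes with an H3K9me2 summit in refed replicate 2 had a median of 147 CPM per kb and the 4 without one a median of 28.1, of which Tat had the highest level at 233 CPM per kb.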

How the data were processed

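Mouse liver was profiled by RNA-seq, ATAC-seq and H3K9me2 ChIP-seq, and groups were taken from the sample labels, with the fasted or refed state of F and R titles read with the help of the methods. The deposited RNA values are estimated counts for RefSeq transcripts, and between 65.5% and 65.9% of them are not whole numbers. The tool that counted them is not given in the sources used here. For the peak assays the authors aligned reads to mm10, called peaks in each sample without pooling with MACS2 (version 2.1.1 in the submitters' processing notes) with q-values limited to 0.05, and deposited summits whose score is the −log10 of the q-value. A table of the authors' own comparison, with fold changes and p-values, was not used.

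Counts were summed per gene, rounded, kept by filterByExpr and tested with edgeR 4.0.16 (quasi-likelihood F test, TMM, genotype only, Benjamini-Hochberg over 14151 genes, threshold 0.05). Of 24994 transcripts 24682 matched RefSeq identifiers of GRCm38.p6, the build called mm10. Summits were assigned to starts within 1000 bp, and where a gene had several the highest score was used. The 43 genes and the wider lists were chosen with earlier results of these data known. Named are the genes that passed the test (Ivd with group means and Oat with its fold change), the most and least abundant of each group, the genes with summits in both samples of a group, and at most 5 genes a direction from each wider list. Libraries are pools of RNA, the number of mice in a pool is not given in the sources used here, and the p-values measure the spread between these libraries. Same-numbered WT and LKO libraries did not deviate together (correlation -0.00461), so no block was used. Scripts were tested on simulated data. Alternatives were other scalings, filters and tests, leaving out each sample, and other windows and score limits for summits. The values of 1 gene of the wider lists are not reported here.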

Additional observations from a re-analysis of the deposited data

How the results depend on the processing

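With 2 libraries a group and a common dispersion of 0.0083, moderate changes depended on single libraries. Of the 43 genes 22 kept their direction and their side of the threshold under all 11 refits, and the 27 higher and 1 lower genes were the same with DESeq2 size factors, library totals, no filter, DESeq2's Wald test and limma-voom. The fit with a replicate block gave 27 higher and 1 lower genes and changed no call of the 43, and in that block fit the lists of other enzymes, transporters and regulators had 23, 13 and 7 higher and 6, 3 and 3 lower genes. The count of higher genes was 19 with the most abundant transcript and 15 at 1.5-fold or more, and that of lower genes 0 under both and at an adjusted p of 0.01. Leaving out 1 library gave between 15 and 29 higher and between 0 and 2 lower genes. For the other enzymes these ranges were 8 to 27 and 1 to 11, for the transporters 7 to 13 and 1 to 3, and for the regulators 4 to 8 and 0 to 3. With the most abundant transcript the lists had 10, 6 and 4 higher and 1, 1 and 0 lower genes, and DESeq2 gave 3 lower among the other enzymes. Genes near 0 changed sign when 1 library was left out, namely Otc (-0.20 to 0.12), Nags (-0.18 to 0.07), Cbs (-0.01 to 0.18), Got2 (-0.12 to 0.13) and Mccc1 (-0.12 to 0.15). Got2 and Mccc1 were also at -0.03 and -0.02 with library totals, and Cbs at -0.01 with its most abundant transcript. Beyond the fewer samples or genes that an alternative itself uses, the cause was not tested.

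The number of genes with an ATAC summit in both fasted livers, 2, became 1 with a score of at least 5, 0 with the 825 strongest summits of every liver, 5 anywhere in the gene and 11 in either liver. For refed WT, 3 became 1 with equal numbers and 6 in either liver, and for LKO 0 became 2 in either liver. Single livers gave 2 to 11 fasted, 4 to 5 refed and 1 to 1 LKO genes. For H3K9me2, 38 fasted genes became 8 with the 1297 strongest summits, with 39 to 41 in single livers. The 0 refed genes became 1 anywhere in the gene and 39 in either liver, with 0 to 39 in single livers. The lists hold called peaks and no coverage, so the depth behind them is unknown.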

Other observations

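Hepatocytes near the portal vein are known to hold most of the urea cycle and of serine and histidine breakdown, and those near the central vein glutamine synthesis and ornithine transamination. Of 13 periportal markers 7 were higher in LKO and 0 lower, compared with 14.6% and 13.4% of all genes tested. However, 6 of the 13 are among the 43 genes. Of the 7 others 3 rose, namely Pck1, at 1525, 1206, 3104 and 3755 CPM (log2 1.33 ± 0.13, adjusted p = 0.00021 by edgeR), Pigr (1.18 ± 0.10, adjusted p = 7.5e-05) and Aldh1b1 (0.82 ± 0.08, adjusted p = 0.00018). Pck1 is a gluconeogenic gene, and the rise differs from the paper, which reported gluconeogenic genes as unaffected by loss of JMJD1C. By RT-qPCR the paper found that such genes responded to feeding alike in both genotypes. Cyp2f2 was at 1110, 1168, 1450 and 1256 CPM and Hsd17b13 at 559, 642, 571 and 560 CPM, and neither passed the test. Of 12 pericentral markers 6 rose and 1 fell (14.6% and 13.4% of all genes tested). Rhbg was at 6.04, 5.04, 13.4 and 17.3 CPM (1.47 ± 0.15, adjusted p = 0.00028), while Glul, the glutamine synthetase of the last row of hepatocytes, was at 882, 989, 1020 and 1082 CPM (0.17 ± 0.09, adjusted p = 0.19). Tbx3 was at 46.5, 45.5, 28.3 and 20.5 CPM (-0.92 ± 0.13, adjusted p = 0.0013). The pericentral list holds Oat, which is also among the 43 genes. The median log2 change was 0.60 over the periportal and 0.33 over the pericentral list, and 0.25 and 0.28 with the shared genes left out. Genes named from these lists beyond the list itself were chosen after their values were seen.

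Besides the Kupffer cell and endothelial markers, other cell types had few markers past the test. Over all genes tested 14.6% rose and 13.4% fell. Of 6 stellate cell and 5 bile duct markers 0 passed (edgeR). At an unadjusted p under 0.05 there were 4 stellate markers, Reln, Colec11 and Dcn with positive log2 changes of 0.32, 0.23 and 0.25 and Lrat with -0.29, and 1 bile duct marker, Krt19, with -0.90. Of 5 lymphocyte markers 1 rose, Cd3e, while all 5 had a log2 change above 0, with a median of 0.95 and summed levels of 2.93 and 2.95 CPM in WT and 4.84 and 6.55 CPM in LKO. Of 5 red blood cell markers 1 rose, Alas2. Of the exocrine pancreas markers only Cela1 was tested, and it rose from 5.3 and 5.12 CPM to 8.14 and 8.18 CPM. None of the 5 kidney markers was tested.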
